A study of Homo sapiens with 12 samples.

Results

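MiaPaca2, an established line grown from a human pancreatic carcinoma, was set against 7 other human tumour lines. It was measured on 3 of the 12 two-channel arrays, 1 without a media label and 2 with the media label DMSO, the common solvent dimethyl sulfoxide. The reference lines were Panc1 and HT29, each with 2 arrays that carry the DMSO label, and Capan2, HPAC, HPAFII, HCT-116 and SW620, each with 1 array and no media label. HCT-116, HT29 and SW620 are colorectal lines by catalogue, although the study's design names every line as pancreatic. On each array the line's RNA carried Cy5 and whole human RNA, the common reference, carried Cy3. No label names a separate culture for any array, so the error behind a p-value is array to array and could be purely technical. A value is the deposited ratio, read as log2 of cell line over common reference, so 1 unit stands for a doubling. That direction is likely from the dyes but is not stated, and with the ratio turned every sign would turn.

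A gene was selected if all 3 MiaPaca2 arrays lay at least 2 above, or at least 2 below, the means of all 7 other lines. Of 18334 genes, 19 lay above, which is 0.104% of the genes, and 53 lay below, which is 0.289%. The distance between the nearest MiaPaca2 array and the nearest other line is called the margin here. These values chose the genes, so no p-value of the same contrast is given for them, and where fits over all genes also call them, their calls support nothing. With any margin above 0, 636 genes (3.47%) lay above and 649 (3.54%) below.

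Carcinoma cells in culture range from epithelial, with E-cadherin, EPCAM, keratins and tight junctions, to mesenchymal-like, with vimentin and little cell-to-cell adhesion. Pancreatic ductal cells belong to the first kind, and transcription factors such as ZEB1 are known to repress their adhesion genes through the letters CACCTG, a form of the E-box.

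Several selected genes were near neighbours among measured genes, the members of each pair on the same side in MiaPaca2. The starts of 3 such pairs are shown as examples. FUNDC1 and KDM6A on the X chromosome and STEAP1 and STEAP2 on chromosome 7 were low, and RGS4 and RGS5 on chromosome 1 were high. Each window runs from 250 bases before to 50 after the gene start in the RefSeq table of GRCh38.p14, read 5′ to 3′ on the gene's own strand. Capitals mark CACCTG or its reverse complement CAGGTG.
FUNDC1 (- strand, chrX:44542810-44543109): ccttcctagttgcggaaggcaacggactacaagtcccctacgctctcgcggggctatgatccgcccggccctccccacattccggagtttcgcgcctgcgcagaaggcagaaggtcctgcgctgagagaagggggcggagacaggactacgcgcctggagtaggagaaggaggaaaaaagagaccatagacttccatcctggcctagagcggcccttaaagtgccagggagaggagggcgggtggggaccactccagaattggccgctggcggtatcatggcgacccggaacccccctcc
KDM6A (+ strand, chrX:44872938-44873237): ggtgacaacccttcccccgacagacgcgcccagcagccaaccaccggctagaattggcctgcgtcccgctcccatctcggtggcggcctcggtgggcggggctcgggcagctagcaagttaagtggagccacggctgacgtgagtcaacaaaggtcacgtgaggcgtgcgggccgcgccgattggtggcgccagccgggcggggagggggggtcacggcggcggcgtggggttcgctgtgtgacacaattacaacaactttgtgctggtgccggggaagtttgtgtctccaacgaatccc
STEAP1 (+ strand, chr7:90154219-90154518): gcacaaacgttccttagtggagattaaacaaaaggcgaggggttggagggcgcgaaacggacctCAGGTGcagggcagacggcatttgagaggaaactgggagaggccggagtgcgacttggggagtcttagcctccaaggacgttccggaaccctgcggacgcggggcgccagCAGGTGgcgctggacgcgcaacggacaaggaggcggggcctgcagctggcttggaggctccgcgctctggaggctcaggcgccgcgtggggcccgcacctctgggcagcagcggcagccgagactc
STEAP2 (+ strand, chr7:90211490-90211789): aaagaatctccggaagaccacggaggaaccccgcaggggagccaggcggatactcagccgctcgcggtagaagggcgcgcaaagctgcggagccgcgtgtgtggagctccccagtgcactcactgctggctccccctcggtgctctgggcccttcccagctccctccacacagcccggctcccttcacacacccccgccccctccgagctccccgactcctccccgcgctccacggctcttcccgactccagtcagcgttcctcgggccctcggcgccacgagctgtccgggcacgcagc
RGS4 (+ strand, chr1:163068621-163068920): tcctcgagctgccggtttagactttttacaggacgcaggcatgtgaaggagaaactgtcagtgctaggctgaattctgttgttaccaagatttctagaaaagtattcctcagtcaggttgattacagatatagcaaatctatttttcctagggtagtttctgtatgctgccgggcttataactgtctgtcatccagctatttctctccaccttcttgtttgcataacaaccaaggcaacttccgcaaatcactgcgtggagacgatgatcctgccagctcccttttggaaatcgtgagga
RGS5 (- strand, chr1:163321686-163321985): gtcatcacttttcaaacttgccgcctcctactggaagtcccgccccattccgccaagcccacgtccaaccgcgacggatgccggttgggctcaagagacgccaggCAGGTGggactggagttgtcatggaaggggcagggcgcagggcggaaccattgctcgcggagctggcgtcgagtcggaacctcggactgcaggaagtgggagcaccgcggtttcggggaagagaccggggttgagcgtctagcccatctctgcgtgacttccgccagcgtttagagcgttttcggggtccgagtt
STEAP1 held the motif at 2 places and RGS5 at 1, and the other 4 windows held none. The RGS4 window held 8 CpG steps and the others 21 to 29. The median over the 14411 measured genes with a window was 23.

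The MiaPaca2 arrays resembled each other more than any other line. Across genes they correlated at 0.836 to 0.874 among themselves and at 0.426 to 0.615 with arrays of other lines. With the DMSO label the 2 MiaPaca2 arrays correlated most with Panc1, at 0.593 and 0.607 on average, whose arrays carry that label too. The array without the label correlated most with SW620, at 0.553, then with HCT-116 at 0.534 and with Panc1 at 0.519. The array without a media label had a wider spread over genes, an SD of 1.25, than the 2 with the DMSO label, both 1.08. The same margin applied to line means gave 35 genes above and 71 below for MiaPaca2. Panc1 had 127 above and 17 below, HPAFII 65 and 80, SW620 88 and 42, and HCT-116 73 and 36. HT29 had 35 and 20, HPAC 53 and 4, and Capan2 31 and 5. MiaPaca2 was thus, with HPAFII, 1 of 2 lines with more genes apart below than above, and these counts rest on 1 to 3 arrays a line.

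**Figure D1:**
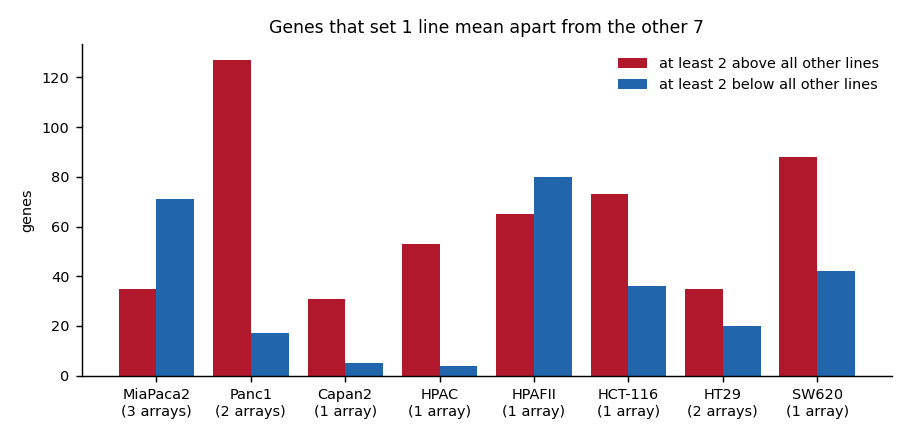
Number of genes (y axis) for which the mean of 1 line lies at least 2 above (red) or at least 2 below (blue) the means of all 7 other lines, with the number of arrays of each line on the x axis. MiaPaca2 has 35 genes above and 71 below.

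Among the genes lower in MiaPaca2, KDM6A had the widest margin. It encodes a demethylase of histone H3 lysine 27. Its log2 ratio was -5.52 on the MiaPaca2 array without a media label and -4.90 and -4.62 with the DMSO label, against -0.07 at the lowest, 0.04 at the median and 0.30 at the highest of the other lines. All 7 other lines thus sat close to the common reference, and the margin was 4.55. The difference from their mean was -5.09.

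EPCAM had the next margin, 4.47, and 2 other epithelial genes, CDH1 and KDF1, had margins of 2.09 and 2.64. EPCAM, the epithelial cell adhesion molecule, stood at -6.30, -5.76 and -5.39 in MiaPaca2, against -0.92, 3.42 and 4.03 at the lowest, median and highest of the other lines. Panc1 was the line at -0.92, and the other 6 lay at 2.66 or above. CDH1, which encodes E-cadherin, stood at -5.90, -5.36 and -4.95 in MiaPaca2, against -2.86, 1.86 and 3.37. Its nearest lines were SW620 and Panc1, at -2.86 and -2.76, so CDH1 was low in 3 lines and lowest in MiaPaca2. All 10 features of CDH1 on the array set MiaPaca2 apart, 7 of them by at least 2. KDF1, a regulator of epidermal differentiation, stood at -3.86, -3.58 and -2.94 in MiaPaca2, against -0.29, 2.67 and 3.03, again with Panc1 nearest.

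Among the other lower genes were some of membrane traffic and transport, grouped here by role after their values were seen. MYO5C, a class V myosin of epithelial cells, stood at -5.14, -4.82 and -4.67 in MiaPaca2, against -0.39, 0.80 and 1.25. SORL1, a sorting receptor, stood at -3.92, -4.15 and -4.02 in MiaPaca2, against -0.49, 0.80 and 2.28. DYNLT3, a dynein light chain, stood at -5.03, -4.62 and -4.44 in MiaPaca2, against -0.81, -0.10 and 0.84. In none of these did a MiaPaca2 array come within 3 units of another line. MFSD1, a lysosomal transporter, stood at -6.05, -5.31 and -4.90 in MiaPaca2, against -1.37, 0.34 and 1.43. The ESCRT-III gene CHMP4C stood at -2.35, -1.76 and -1.76, against 0.52, 2.57 and 3.09, with Panc1 nearest. The sterol carrier gene STARD4 had a MiaPaca2 mean of -3.76 ± 0.43 (SD, n = 3 arrays).

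Of the tetraspanins, a family of membrane organisers, TSPAN6, TSPAN13 and TSPAN5 were selected. TSPAN6 stood at -5.77, -4.33 and -4.41 in MiaPaca2, against -0.21, 0.60 and 1.60. TSPAN13 and TSPAN5 differed from the mean of the other lines by -3.57 and -4.25. STEAP1 and STEAP2, of the six-transmembrane epithelial antigen of the prostate family, were both low. STEAP1 stood at -4.03, -3.50 and -4.25 in MiaPaca2, against 0.34, 2.24 and 3.09. STEAP2, a metalloreductase, stood at -2.47, -1.96 and -2.02 in MiaPaca2, against 1.95, 2.29 and 3.31. Both were above the common reference in each of the 7 other lines.

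Other membrane and cytoskeletal genes with wide margins were PLEK2, TMC5, RTKN2, ARAP2 and XK. PLEK2, which encodes pleckstrin 2, stood at -2.44, -2.20 and -2.08 in MiaPaca2, against 1.99, 2.26 and 3.17. TMC5, a transmembrane channel-like gene, stood at -3.68, -2.61 and -2.69 in MiaPaca2, against 1.40, 2.51 and 5.45. The other lines were closely grouped for PLEK2 and spread over 4 units for TMC5, and MiaPaca2 lay below the reference for both. RTKN2, a rhotekin, differed by -4.96, the Arf GTPase-activating gene ARAP2 by -4.82, and XK, a membrane protein linked to the Kell blood group, by -4.72. TES, a focal adhesion gene, lay just inside the threshold with a margin of 2.05.

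Signalling genes were also among the lower ones. MET, the receptor of hepatocyte growth factor, stood at -1.76, -1.41 and -2.69 in MiaPaca2, against 0.66, 1.77 and 3.26. All 12 features of MET set MiaPaca2 apart, 10 of them by at least 2. AHR, a ligand-activated transcription factor, stood at -4.81, -4.13 and -4.43 in MiaPaca2, against -1.97, -1.03 and 0.66. RNF128, a ubiquitin ligase, stood at -4.22, -3.75 and -3.62 in MiaPaca2, against 0.34, 1.41 and 3.83. MET and RNF128 were above the common reference in all 7 other lines, and AHR was above it in 1. HMGA2, an architectural chromatin protein, stood at -4.70, -3.75 and -3.33 in MiaPaca2, against -0.80, 0.84 and 2.16. MARCKS, a substrate of protein kinase C, differed by -4.44.

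The remaining genes among the 20 widest margins covered several roles. B3GNT3 extends mucin-type sugar chains and differed by -4.97, and the endogenous retroviral envelope gene ERVMER34-1 by -4.48. LRRCC1, a centrosomal gene, differed by -4.42, the adaptor gene SH3BGRL by -4.95, and FUNDC1, a receptor of mitochondrial autophagy, by -3.82. The other members of the 53 not described so far, chosen by the same rule, were SLC52A3, ARHGEF35, SCML1, NMRK1, SVIP, ARHGEF5, DENND2D, GCA, RND3, SH2D4A, NETO2, TNIK, BOLA1, ARRDC4, TMEM133, CATSPER1, PARP8, NUDT16L2P, RAMP1, ZBED10P, LMCD1 and OSBPL10. Over all 53, the difference ran from -8.55 to -2.88 with a median of -4.44. For 25 of them every MiaPaca2 array lay below the common reference and all 7 other line means above it. Panc1 was the nearest line for 17, HCT-116 for 9, and HT29 and SW620 for 8 each.

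**Figure D2:**
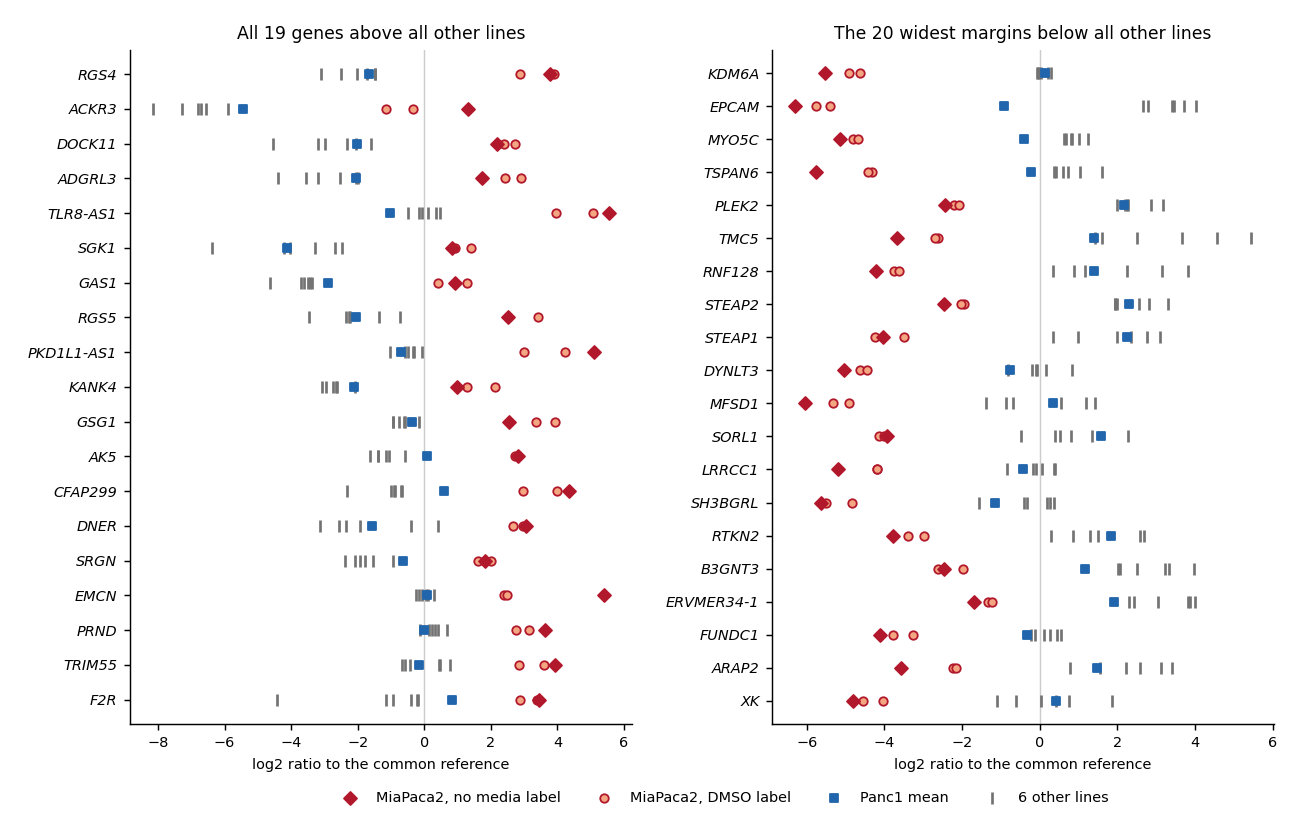
Log2 ratio to the common reference (x axis) of the 19 genes above all other lines (left) and the 20 lower genes with the widest margins (right). Diamonds and circles are the 3 MiaPaca2 arrays, blue squares the Panc1 mean and grey ticks the 6 other lines. For KDM6A the 7 other lines lie within -0.07 to 0.30, while for EPCAM Panc1 stands between MiaPaca2 and the rest.

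Of the 19 genes higher in MiaPaca2, those of G protein signalling and receptors are given first. RGS4, which speeds the turning off of G proteins, stood at 3.77, 2.87 and 3.89 in MiaPaca2, against -3.10, -1.71 and -1.49 at the lowest, median and highest of the other lines. RGS5, of the same family, stood at 2.51, 2.53 and 3.43 in MiaPaca2, against -3.47, -2.24 and -0.72. MiaPaca2 was the line above the common reference for both, by a margin of 4.35 for RGS4 and 3.23 for RGS5. ACKR3, an atypical receptor of the chemokine CXCL12, stood at 1.30, -1.16 and -0.35 in MiaPaca2, against -8.16, -6.72 and -5.44. In MiaPaca2 it was thus near the common reference, and in the other lines it was far under it. ADGRL3, a latrophilin, stood at 1.74, 2.90 and 2.44 in MiaPaca2, against -4.41, -2.54 and -1.99. F2R, the thrombin receptor PAR1, stood at 3.45, 2.87 and 3.39 in MiaPaca2, against -4.42, -0.40 and 0.82, and it lay just inside the threshold.

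Other signalling genes followed. DOCK11, an exchange factor for CDC42, stood at 2.20, 2.41 and 2.72 in MiaPaca2, against -4.56, -2.32 and -1.60. SGK1, the serum and glucocorticoid regulated kinase, stood at 0.84, 1.39 and 0.91 in MiaPaca2, against -6.37, -4.03 and -2.48. GAS1, a membrane-anchored co-receptor of hedgehog ligands, stood at 0.91, 0.41 and 1.27 in MiaPaca2, against -4.64, -3.51 and -2.90. For these 3 genes every other line lay below the common reference. AK5, an adenylate kinase, varied least between the MiaPaca2 arrays, at 2.81, 2.83 and 2.73, against -1.62, -1.14 and 0.08. KANK4, a gene of the cytoskeletal KANK family, differed by 4.07.

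Genes best known from endothelium, neurons, blood cells or germ cells were also in the list. EMCN, an endothelial sialomucin, stood at 5.40 on the array without a media label and 2.39 and 2.48 with the DMSO label, against -0.26, 0.06 and 0.29. Its MiaPaca2 SD of 1.71 was the highest of the 19, and the first array stood well over the other two. SRGN, the granule proteoglycan serglycin, stood at 1.81, 2.01 and 1.61 in MiaPaca2, against -2.39, -1.78 and -0.64. DNER, a neuronal Notch ligand, stood at 3.07, 2.96 and 2.67 in MiaPaca2, against -3.14, -1.92 and 0.40. Their MiaPaca2 arrays lay within 0.4 units of each other, unlike those of EMCN. The germ cell genes GSG1 and PRND differed by 3.90 and 2.95, the ciliary gene CFAP299 by 4.61, and TRIM55, a muscle ubiquitin ligase, by 3.49. TLR8-AS1 and PKD1L1-AS1 are antisense RNAs, and the strand that their features read is not stated. TLR8-AS1 stood at 5.55, 3.97 and 5.08 in MiaPaca2, against -1.04, -0.08 and 0.48, and PKD1L1-AS1 at 5.09, 3.0 and 4.22, against -1.03, -0.49 and -0.08.

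Over all 19 genes the difference ran from 2.95 to 6.62 with a median of 4.55. For 10 of them all MiaPaca2 arrays lay above the common reference and all 7 other line means below it. Panc1 and HPAC were each the nearest line for 6. The array without a media label was the lowest of the 3 MiaPaca2 arrays for 44 of the 53 lower genes and the highest for 9 of the 19 higher ones. Just inside the threshold lay F2R and TRIM55 above, with margins of 2.05 and 2.07, and TES and MET below, with 2.05 and 2.07. Just outside lay C6orf118 and RNF150 above, with 1.97 and 1.95, and PTPRK and FOCAD below, with 2.00 and 1.98. Most selected genes rest on 1 feature, 12 of 19 and 34 of 53. Where there were several, all lay apart in the same direction, by any margin, for 6 of 7 higher and 18 of 19 lower genes. The exceptions were PRND and TES. All features lay apart by at least 2 for 3 of these 7 and 8 of these 19.

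The arrays with the DMSO label allowed a test on arrays that a choice had not used. Genes were chosen on the 6 arrays without a media label, as those for which MiaPaca2 lay at least 2 above or below Capan2, HPAC, HPAFII, HCT-116 and SW620. Of 93 genes above, 79 (84.9%) were higher in MiaPaca2 than in the mean of Panc1 and HT29 on the DMSO arrays (limma, two-sided, Benjamini-Hochberg adjusted p under 0.05), where 10.8% of all genes were called higher. None of the 93 was called lower, and their median difference was 2.02, against -0.025 over all genes. Of 186 genes below, 165 (88.7%) were called lower, where 11.9% of all genes were, 1 was called higher, and the median difference was -2.5. The gene called the other way was BIK, named here after its values were seen, at -0.17 and 0.16 in MiaPaca2 with the DMSO label, against -1.51 and -2.07 in Panc1 and 0.20 and 0.09 in HT29. As the contrast is with a mean, a call does not place MiaPaca2 beyond both Panc1 and HT29, as PLAAT1 and BMP4 show in what follows. All 19 and 53 selected genes are within these 93 and 186. Their call here is fixed in part by the margin they had to show over Panc1 and HT29.

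**Figure D3:**
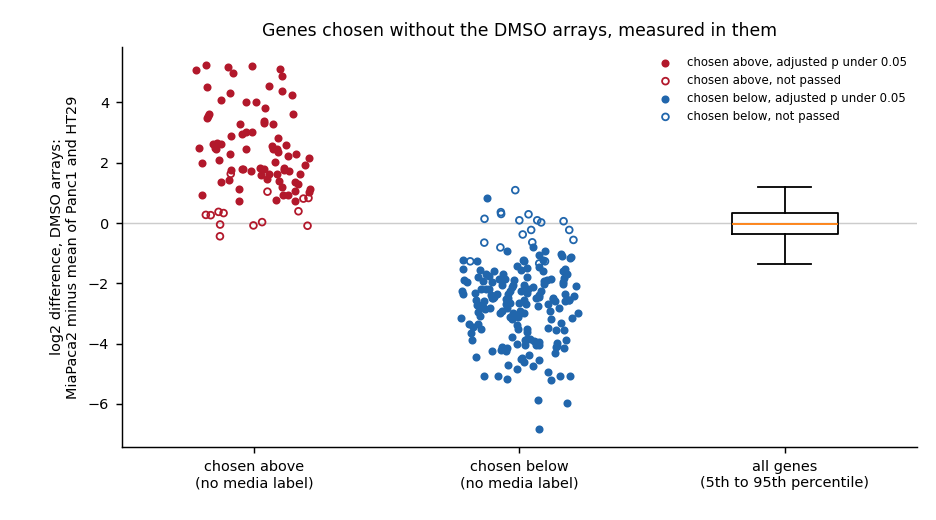
Log2 difference on the DMSO arrays, MiaPaca2 minus the mean of Panc1 and HT29 (y axis), for the 93 genes chosen above and the 186 chosen below on the arrays without a media label. Filled points had an adjusted p under 0.05, and the box gives the quartiles of all genes with whiskers at the 5th and 95th percentiles. The chosen sets have medians of 2.02 and -2.5, and the filled blue point above 0 is BIK.

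The 8 genes with the widest margin in each direction on the arrays without a media label show how far Panc1 shares the MiaPaca2 values. Among the higher ones, COL5A2, a fibrillar collagen chain, stood on the DMSO arrays at 2.43 and 3.21 in MiaPaca2, against 1.02 and 1.59 in Panc1 and -2.31 and -2.5 in HT29. ALDH1A1, an aldehyde dehydrogenase, stood at 2.83 and 3.93 in MiaPaca2, against -3.51 and -3.62 in Panc1 and 3.23 and 3.45 in HT29. COL5A2 was thus shared in part with Panc1 and ALDH1A1 with HT29. PLAAT1, a phospholipid acyltransferase, had a difference of 1.74 ± 0.335 (SE, limma adjusted p = 0.007234), and both Panc1 arrays lay above both MiaPaca2 arrays. ARMC12 did not pass: it stood at 7.58 on the MiaPaca2 array without a media label and at -0.16 and -0.62 with the DMSO label, against -0.50 and -0.71 in Panc1 (limma adjusted p = 0.3058). The other 4 were ACKR3, PKD1L1-AS1, RGS4 and EMCN.

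Among the lower ones, ANXA3, an annexin, stood on the DMSO arrays at -4.76 and -4.62 in MiaPaca2, against -3.87 and -3.86 in Panc1 and 3.06 and 2.10 in HT29 (limma adjusted p = 4.521e-05). HOOK1, a microtubule-linked adaptor, stood at -3.29 and -3.24 in MiaPaca2, against -2.90 and -2.44 in Panc1 and 1.33 and 1.71 in HT29. BMP4, a bone morphogenetic protein, stood at -2.90 and -2.59 in MiaPaca2, against -2.82 and -2.58 in Panc1 and 2.48 and 2.5 in HT29. For BMP4 the arrays of MiaPaca2 and Panc1 overlapped, so its call on the DMSO arrays came from HT29. GCA, a calcium-binding protein named for granulocytes, stood at -3.95 and -4.18 in MiaPaca2, against -1.47 and -1.39 in Panc1 and 2.07 and 2.22 in HT29. The other 4 were EPCAM, TSPAN6, MYO5C and KDM6A.

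A further fit set MiaPaca2 against the spread among the other 7 lines. Limma on the 8 line means called 13 genes higher (0.0709%) and 15 lower (0.0818%) in MiaPaca2, and 315 and 343 had an unadjusted p under 0.05. This fit used the values that chose the selected genes, so their overlap with its calls is built in. The 8 genes called and not selected were, higher, BRINP3, C6orf118, CYP4Z1 and ROBO4, and, lower, DIAPH2, FOCAD, MBD2 and TMEM102. All but C6orf118 and FOCAD are named after their values were seen. The count of calls fell as single lines were left out. It was 0 higher and 1 lower without Capan2, 3 and 5 without HPAC, and 5 and 7 without HCT-116. Without SW620 it was 7 and 8, and without HPAFII 10 and 12. Without Capan2, 294 genes were still higher at an unadjusted p under 0.05, near the 315 with all lines. Leaving out any of these lines also lowers the residual degrees of freedom from 6 to 5.

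By chromosome, the lower genes at a margin of 2 were most numerous on chromosome 7 and the X chromosome. Chromosome 7 held 9 of the 53 (17.0%), while it holds 4.70% of measured genes, and the X chromosome held 8 (15.1%), while it holds 3.81%. With any margin above 0, the lower genes made up 3.60% of the measured genes of chromosome 7 and 3.58% of those of the X chromosome, near the 3.54% of all genes. Chromosome 11 then had the most, 85 of its 1095 measured genes or 7.76%. Limma over arrays called 54 of the 1095 higher and 253 lower, beside 2245 (12.2%) and 2439 (13.3%) of all 18334 genes. The 8 on the X chromosome were KDM6A, TSPAN6, RNF128, DYNLT3, SH3BGRL, FUNDC1, XK and SCML1. Several lay near each other in the gene order of GRCh38.p14. Between FUNDC1 and KDM6A lies 1 measured gene, DUSP21, a phosphatase gene at 0.40, 0.52 and 0.02 in MiaPaca2, against -0.64 to 0.54 in the other lines. Between XK and DYNLT3 lies CYBB, an oxidase subunit of phagocytes, at -2.26, -1.94 and -1.90 in MiaPaca2, against -2.36 to -1.62. The genes in between were thus within the range of the other lines, and without signal intensities an unexpressed gene cannot be told from an expressed one.

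RGS4 and RGS5 are adjacent among measured genes, as are STEAP1 and STEAP2. Beside RGS4 lies CCDC190, at 4.22, -0.61 and 3.89 in MiaPaca2, against -0.19 to 3.99, so the 3 MiaPaca2 arrays did not share its level. On chromosome 7, TES and MET have CAV2 and CAV1 between them. CAV1, which encodes caveolin 1, stood at -2.34, -0.62 and -1.61 in MiaPaca2, within the range of -4.24 to 1.71 in the other lines. Between TSPAN13 and AHR lie AGR2 and AGR3, protein disulfide isomerase genes. AGR2 stood at -4.57, -4.24 and -3.82 in MiaPaca2, against -4.14 to 4.17, and AGR3 at -3.81, -3.24 and -2.77, against -4.13 to 3.49. ARHGEF35 and ARHGEF5 share part of their sequence, so some of their features may read both genes. The 2 features of ARHGEF5 had margins of 1.10 and 3.58. CHMP4C and LRRCC1 on chromosome 8 have 2 measured genes between them.

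A stretch of chromosome 9 around MTAP, chosen after its values were seen, also held several low genes. MTAP, an enzyme of methionine salvage, stood at -4.44, -3.61 and -3.44 in MiaPaca2, against -2.78, 1.42 and 2.47 at the lowest, median and highest of the other lines. CDKN2A, which encodes the cell cycle inhibitor p16, stood at -3.87, -3.72 and -3.32 in MiaPaca2, against -3.23, 1.23 and 2.80. Panc1 was the low line for both, at -2.78 and -3.23, so MiaPaca2 and Panc1 stood together below the other 6. CDKN2B, of the same inhibitor family, stood at -2.07, -1.34 and -1.16 in MiaPaca2, against -1.21 in Panc1 and 0.24 or more elsewhere. FOCAD, a focadhesin gene, stood at -2.80, -2.56 and -2.21 in MiaPaca2, against -0.23 in Panc1. Of its 2 features, 1 had MiaPaca2 below all other lines, with a margin of 4.09, and the other did not, at -0.12. KLHL9, an adaptor of a ubiquitin ligase, stood at -3.56, -2.98 and -2.38, against -1.16 in Panc1. Unlike at CDKN2A, the MiaPaca2 arrays for FOCAD and KLHL9, averaged over features, were more than 1 unit below Panc1.

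**Figure D4:**
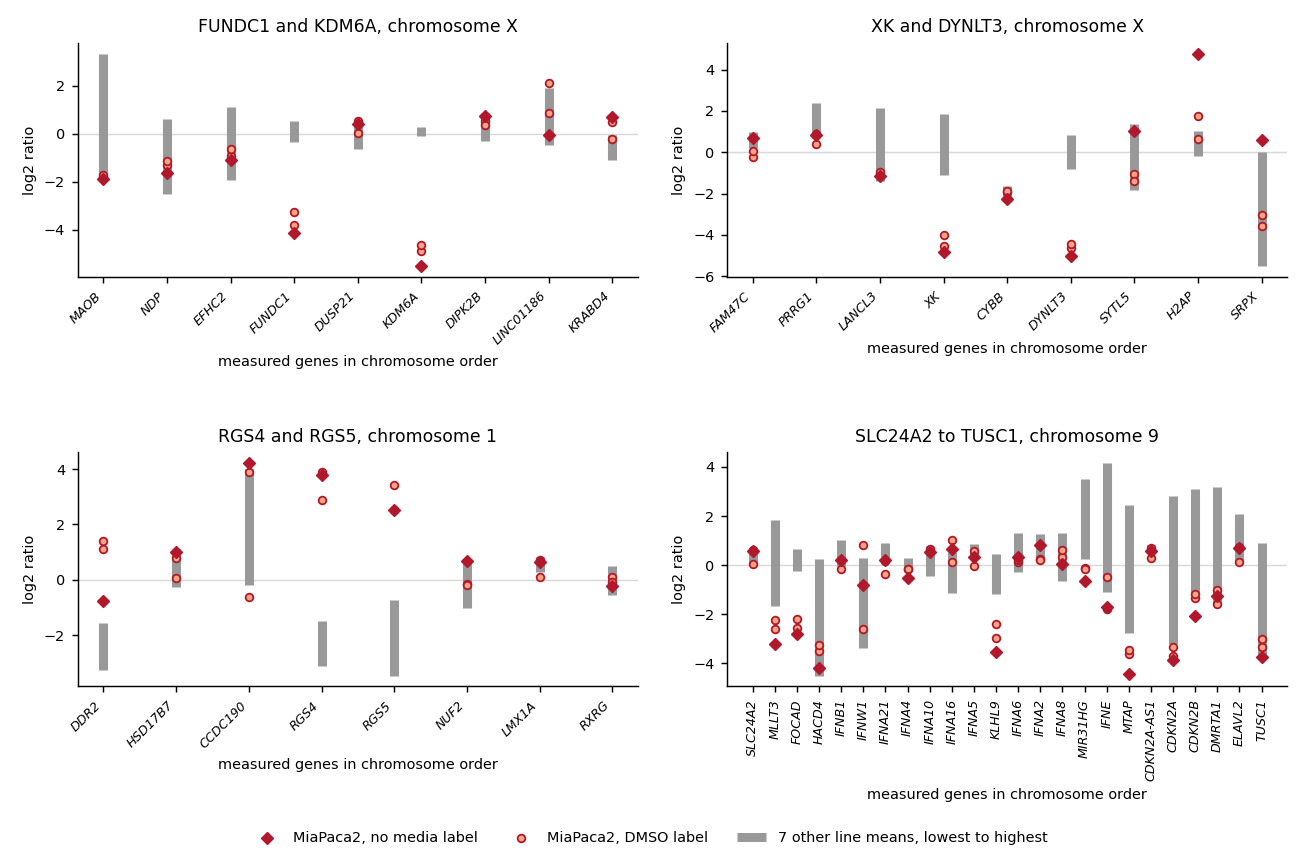
Log2 ratio to the common reference (y axis) of measured genes in chromosome order around 3 selected pairs and along part of chromosome 9. Diamonds and circles are the 3 MiaPaca2 arrays, and grey bars run from the lowest to the highest of the 7 other line means. FUNDC1 and KDM6A fall outside the bars and DUSP21 between them does not.

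Lists of genes by function were compared against the spread between arrays, by limma over the 12 arrays in 8 line groups. That spread comes from MiaPaca2, Panc1 and HT29, the lines with more than 1 array, and is taken to hold for the others. Called means an adjusted p under 0.05 for MiaPaca2 minus the mean of the other 7 lines, and all genes gave 2245 higher (12.2%) and 2439 lower (13.3%), with a median difference of -0.003. None of the 694 list genes was called on line means, where 15 had an unadjusted p under 0.05 as higher and 37 as lower. The list calls below therefore say that MiaPaca2 differs from the average of the other lines, not that it lies outside their range. The selected EPCAM, CDH1, MET and F2R are members of 3 of the lists and are counted in them. A value given for a list gene as a difference is MiaPaca2 minus that mean, on the log2 scale.

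The epithelial adhesion list was lower in MiaPaca2 almost throughout. Of 27 measured genes of epithelial adhesion and identity, 25 were called lower and 0 higher, with a median difference of -2.55. MAL2, a protein of apical transport, stood at -5.73, -5.70 and -5.06 in MiaPaca2, against -5.40, 2.95 and 5.04 at the lowest, median and highest of the other lines. KLF5, an epithelial transcription factor, stood at -2.26, -1.60 and -1.72 in MiaPaca2, against -2.22, 2.90 and 3.71. For both, at least 1 other line reached down to MiaPaca2. MYO5B, the sister gene of MYO5C, differed by -3.99 and AGR2 by -4.87.

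Of 24 tight junction and polarity genes, 14 were called lower and 0 higher, with a median of -1.54, and 8 lay below all other lines. CLDN7, a claudin, stood at -2.27, -1.85 and -1.86 in MiaPaca2, against -1.33, 2.82 and 3.16. EPS8L1, CDS1 and BSPRY differed by -3.66, -3.34 and -2.92. Of 16 desmosome genes, 10 were called lower and 0 higher, with PKP2, JUP, PPL and DSC2 between -2.09 and -1.93, and 3 lay below all other lines. Of 14 keratins, 6 were called lower and 1 higher, with a median of -0.50. KRT23 differed by -3.82, KRT19 by -2.79, KRT7 by -2.55 and KRT20 by -1.80. KRT19 stood at -1.09, -1.12 and -0.36 in MiaPaca2, against 0.78, 1.61 and 3.70, and no array overlapped.

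KRT8 and KRT18, the keratin pair of simple epithelia, were lower on the MiaPaca2 array without a media label than on the 2 with it. KRT8 stood at -1.53 without the label and at 0.33 and 0.25 with it, against -0.30 to 2.43 in the other lines. KRT18 stood at -1.36 without the label and at 0.32 and 0.64 with it, against -0.21 to 2.30. The mesenchymal genes VIM and ZEB1 were lower on that array as well. VIM, which encodes the filament protein vimentin, stood at 0.68 without the label and at 2.27 and 1.83 with it, against 1.70 in Panc1 and -5.35 to -2.17 in the other 6 lines. ZEB1 stood at -0.26 without the label and at 1.85 and 1.07 with it, against 0.02 in Panc1 and -1.99 to -0.69 elsewhere. With 1 array without the label, its part in these values was not tested.

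The mesenchymal list was mixed. Of its 33 genes, 9 were called higher and 3 lower, with a median of 0.11. COL5A2 and VIM differed by 5.18 and 5.10, the matrix cross-linking enzyme LOXL2 by 3.74 and COL1A2 by 3.01. COL1A2, a chain of type I collagen, stood at -1.29, -2.11 and -0.72 in MiaPaca2, against -5.59, -4.25 and -3.87, and its partner chain COL1A1 at -2.06, -1.97 and -1.66, against -2.39, -1.99 and 0.72. COL1A2 was thus above all other lines while COL1A1 was within them. COL3A1, a chain of type III collagen, stood at 3.44, 0.13 and 1.15, against -1.27, -0.75 and -0.48. It was thus also above all other lines, though only 2 of its 5 features set MiaPaca2 apart. The other mesenchymal and fibroblast markers FN1, DCN, LUM, PDGFRA and PDGFRB were not called. CDH2, which encodes N-cadherin, stood at -3.53, -3.57 and -3.26 in MiaPaca2, against 0.38 in Panc1 and -4.70 to -3.37 elsewhere, so MiaPaca2 and Panc1 differed in it. Its difference from the mean of the other lines was -0.30 (limma over arrays, adjusted p = 0.2826).

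Of 29 genes of caveolae, actin and cytoskeleton, 11 were called higher and 6 lower, with a median of 0.25. CAVIN2, a caveola coat protein, differed by 5.0 and CNN3, a calponin, by -2.88. The tubulins TUBB2B and TUBB6 differed by 2.09 and 2.05. Without MiaPaca2 DMSO replicate 1 the higher count was 7. Of 24 integrins and matrix receptors, 3 were called higher and 10 lower, with a median of -0.40. ITGA2 and ITGA1, chains of collagen receptors, differed by -4.11 and -2.75, while the collagen receptor kinase DDR2 and the hyaluronan receptor CD44 differed by 3.08 and 2.86. DDR2 stood at -0.78, 1.41 and 1.12 in MiaPaca2, against -3.25, -2.48 and -1.56.

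Pancreatobiliary, gastric and intestinal genes were also lower than the mean of the other lines, but few lay below all of them. On every MiaPaca2 array, 2 of 28 pancreatobiliary and gastric genes and 1 of 23 intestinal genes lay below all 7 other line means. Of 28 pancreatobiliary and gastric genes 18 were called lower and 0 higher, with a median of -1.19. GATA6, a transcription factor of the pancreatic lineage, stood at -4.27, -2.38 and -3.24 in MiaPaca2, against -1.42, 1.20 and 3.66, and no array overlapped. TSPAN8 differed by -4.30, the surface antigen CEACAM6 by -3.35 and the lysozyme gene LYZ by -3.11. Of 23 intestinal genes 14 were called lower and 0 higher, with a median of -0.83, and 7 were called lower without the HPAFII array. Of 18 exocrine pancreas genes 3 were called lower and 0 higher, with a median of -0.10. At an unadjusted p under 0.05, 1 pancreatobiliary gene was higher, and 0 genes were in the epithelial, tight junction, desmosome, intestinal and exocrine lists. Of 25 neuroendocrine and islet genes 6 were called higher and 1 lower, with a median of 0.04, and 3 lower without the MiaPaca2 array that has no media label. SCG2, a secretogranin, stood at 3.18, 2.57 and 2.06 in MiaPaca2, against -2.94, -0.55 and 1.24. GAL and CPE, which encode galanin and carboxypeptidase E, differed by 3.45 and 3.11, and the islet factor ISL1 by -3.48. Of the defining markers CHGA, CHGB and SYP, the chromogranin gene CHGA stood at 0.46, -0.93 and -0.09, against -0.07 to 0.64. CHGB stood at 0.28, 0.73 and 0.19 in MiaPaca2, against -2.54 to 2.11. SYP stood at 1.46, 1.11 and 1.14, against -0.12 to 1.25. CHGB and SYP were called higher, with differences of 1.39 and 0.79, but neither lay above all other lines on every MiaPaca2 array. CHGA was not called.

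Of 24 markers of leukocytes, endothelium and other cell types, 0 were called either way by limma over arrays, with a median of 0.05, which turned to -0.09 with quantile normalization. At an unadjusted p under 0.05, 1 was higher and 0 lower. The leukocyte gene PTPRC stood at -2.75, -2.56 and -2.38 in MiaPaca2, against -3.54 to -2.41, and the endothelial gene PECAM1 at -2.78, -1.96 and -2.46, against -4.54 to -1.55. Of the other endothelial markers, VWF stood at -0.83, -0.63 and -0.42 in MiaPaca2, against -1.24 to 0.12, and CDH5 at 0.33, -0.16 and 0.33, against 0.31 to 0.59. Of the other leukocyte markers, CD3E stood at 0.32, -0.25 and 0.24 in MiaPaca2, against 0.04 to 0.49, and CD68 at -0.62, 1.34 and 0.73, against -1.89 to 2.23. None of the 6 lay above all other lines on every MiaPaca2 array, whereas EMCN did, as did the endothelial gene ROBO4, at 0.83, 1.99 and 2.41, against -0.76 to -0.42. The part of endothelial RNA in these values was not tested. Without the MiaPaca2 array that has no media label, 5 of the 24 were called higher.

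Of 33 coagulation and fibrinolysis genes 3 were called higher and 8 lower, with a median of -0.06. Without the MiaPaca2 array that has no media label the counts were 6 and 5, and without HCT-116 5 were higher. F3, which encodes tissue factor, stood at -1.40, -0.17 and -0.54 in MiaPaca2, against -1.03, 1.88 and 6.87, with Panc1 lowest. THBD, which encodes thrombomodulin, differed by -3.74, the plasminogen activator PLAT by -3.29 and the tissue factor pathway inhibitor TFPI by 2.5. TFPI stood at 2.40, 1.87 and 1.23 in MiaPaca2, against -4.20, 0.03 and 0.99. F2R and TFPI were thus above all other lines on every MiaPaca2 array. F3 was below all other lines on the array without a media label and within their range on the 2 with the DMSO label.

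Of 35 interferon response and antigen presentation genes 20 were called lower and 0 higher, with a median of -0.91. At an unadjusted p under 0.05, 25 were lower and 0 higher. IFI27, IRF7, MX1 and IFI44 differed by -3.36, -2.26, -2.19 and -2.00. IRF7, a transcription factor of the interferon response, stood at -1.57, -1.41 and -1.25 in MiaPaca2, against -0.03, 1.00 and 1.61. Of 29 NF-kB targets and chemokines 10 were called higher and 6 lower, with a median of 0.02. The cytokine IL18 differed by -5.09, while the pentraxin PTX3 and the neutrophil chemokines CXCL1 and CXCL8 differed by 3.91, 3.88 and 3.06. CXCL1 stood at 1.62, 3.69 and 4.57 in MiaPaca2, against -2.45, -1.49 and 3.94, so 1 other line reached the MiaPaca2 range.

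Growth factor lists had calls both ways. Of 27 EGFR and MAPK genes 6 were called higher and 8 lower, with a median of -0.03 that turned to 0.04 with quantile normalization. The Eph receptor EPHA4 differed by 4.49, the Sprouty gene SPRY2 by 2.74, the ligand TGFA by -4.36 and the phosphatase DUSP6 by -3.58. DUSP6 stood at -4.85 without the media label and at -1.11 and -3.08 with it, against -1.59, 0.09 and 3.18. Of 31 Eph receptors, ephrins and other receptor kinases 6 were called higher and 7 lower, with a median of 0.18. The 6 became 3 without HT29 DMSO replicate 2 or either Panc1 array, and 2 without either MiaPaca2 DMSO array. Beside MET, the ephrin EFNB2 differed by -3.17 and MST1R, the receptor closest to MET, by -2.74. MST1R stood at -1.22, -0.97 and -0.38 in MiaPaca2, against 1.01, 1.87 and 2.44, below all other lines as MET was. Of 33 TGF-beta, BMP and activin genes 9 were called higher and 8 lower, with a median of -0.20, and 12 lower with quantile normalization. BMP4, TGFBR2, GDF15 and TGFB2 differed by -4.89, -3.51, -3.41 and -3.38. SMAD4, the shared mediator of the pathway, stood at 0.33, 0.98 and 0.37 in MiaPaca2, against -2.45, -1.10 and 0.55.

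The remaining lists had calls in both directions, where 12.2% of all genes were called higher and 13.3% lower. The imprinted and cancer-testis counts, and the higher counts of the neural and tumour suppressor lists, lay near those shares. Of 33 stress, metallothionein and xenobiotic genes 10 were called higher and 12 lower, with a median of -0.21. ALDH1A1 differed by 5.98, the metallothionein MT1M by 3.61, the efflux pump ABCC3 by -4.14 and the vitamin D hydroxylase CYP24A1 by -2.85. Of 27 HOX genes 6 were called in each direction, with a median of -0.05, HOXB2 differing by 3.4 and HOXC9 by -4.21. Without MiaPaca2 DMSO replicate 2, 2 were called higher. Of 22 tumour suppressors and p53 targets 3 were called higher and 6 lower, with a median of -0.31. Of 26 hypoxia and glycolysis genes 2 were called higher and 7 lower, with a median of -0.23 and a difference of -3.79 for the lactate dehydrogenase LDHB. Of 34 imprinted and cancer-testis genes 5 were called higher and 6 lower, with a median of -0.08 and a difference of -3.86 for the imprinted gene MEST. Without the MiaPaca2 array that has no media label the higher counts of these last 2 lists were 4 and 8. Of 30 cell cycle genes 7 were called higher and 1 lower, with a median of 0.23, and the 7 became 3 or 4 without MiaPaca2 DMSO replicate 1 or 2. Of 23 Wnt targets 1 was called higher and 7 lower, with a median of -0.31. Of 28 neural genes 4 were called higher and 2 lower, with a median of 0.11, and of 17 gemcitabine genes 3 and 1, with a median of -0.24. As each array was left out, the lower gemcitabine count ran from 0, without Panc1 DMSO replicate 4 or MiaPaca2 DMSO replicate 2, to 3, without HPAFII or MiaPaca2 DMSO replicate 1. The lower cell cycle count ran from 0, when Capan2, HPAC, SW620, either Panc1 array or either MiaPaca2 DMSO array was left out, to 3, without HCT-116 or the MiaPaca2 array that has no media label. The lower neural count was 1 without HPAC, either HT29 array, Panc1 DMSO replicate 4 or the MiaPaca2 array that has no media label, and the higher Wnt count was 2 without Capan2 or that array. The higher hypoxia count was 1 without either MiaPaca2 DMSO array. The higher keratin count was 0 without HCT-116, either Panc1 array, MiaPaca2 DMSO replicate 2 or the array that has no media label, and 2 without MiaPaca2 DMSO replicate 1.

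**Figure D5:**
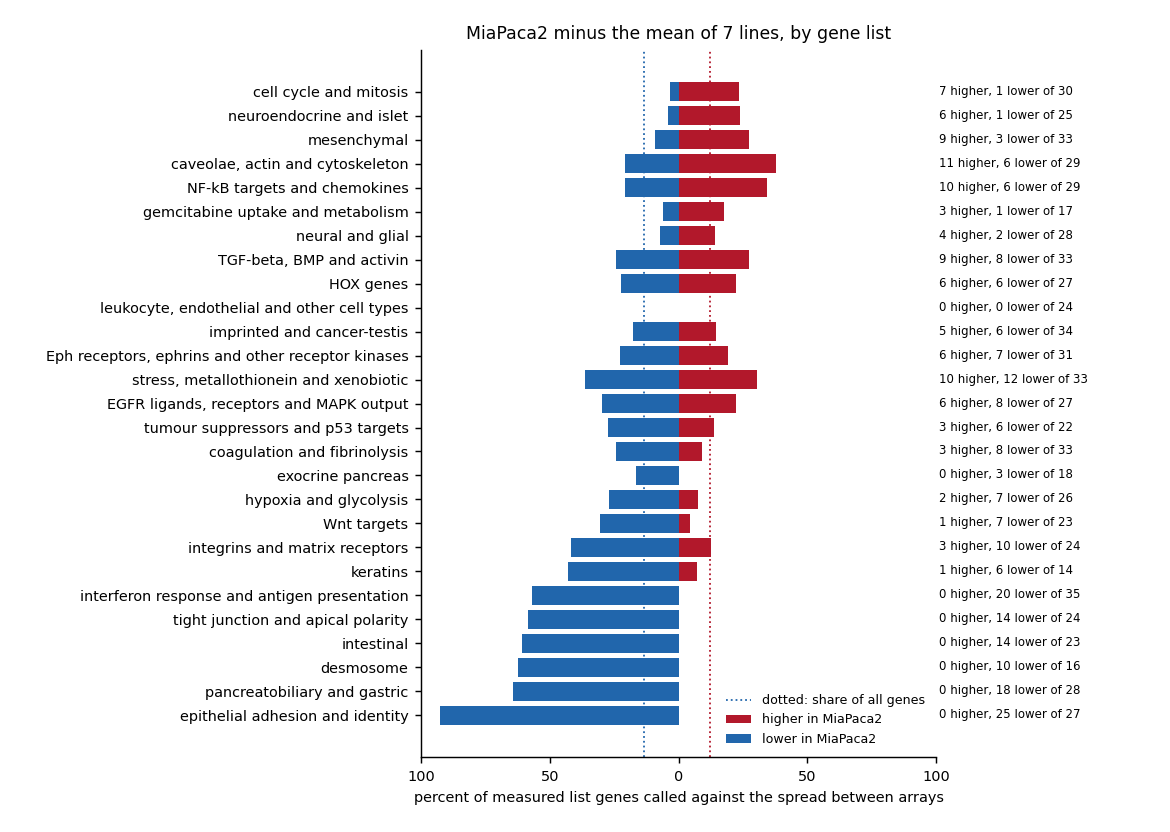
Percent of the measured genes of each list called higher (red, to the right) or lower (blue, to the left) in MiaPaca2 than the mean of the other 7 lines, by limma over arrays. Dotted lines mark the share of all genes, 12.2% and 13.3%, and the epithelial list at the foot has 25 of 27 genes called lower.

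Windows around the gene start were searched for CACCTG and CAGGTG on the strand shown, which covers both strands. Of 37 lower selected genes with a window, 12 (32.4%) held one of them, as did 1 of 11 higher ones (9.09%), beside 19.5% of the 14411 measured genes and 20.6% of all 27305 windows. Of 47 windows of the epithelial, junction, desmosome and keratin lists, 23 (48.9%) held one. These windows came from all 80 measured genes of the lists, called or not. The 2 selected lower genes among the 80, EPCAM and CDH1, had no window. A match describes letters in the window and is no measurement of binding.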

How the data were processed

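RNA of 8 human cell lines was measured on 12 two-channel arrays. The authors deposited 1 value per feature and array, taken here as log2 of cell line over common reference because values run from -10.7 to 9.61 around 0. Not given in the sources used here were the log base, background correction, normalization and direction. No intensities were used, so dim features could not be told from bright ones. Of 45220 features, 31332 had 1 symbol in the platform annotation, 93 several and 13795 none. The first were averaged into 18334 genes. Of the features with 1 symbol, 31291 matched, by gene ID, the RefSeq table of GRCh38.p14, which gave names, gene order and start windows.

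HT29 and Panc1 arrays were averaged within the line. Limma 3.58.1 in R 4.3.3 (lmFit, eBayes, two-sided, Benjamini-Hochberg over all genes, threshold 0.05) was run on 8 line means with 6 residual degrees of freedom, on 12 arrays in 8 line groups with 4, and on the 6 DMSO arrays with 3. With 1 line against 7, MiaPaca2 is assumed to vary like the others. The number of arrays limits the precision. The line-mean fit was tested on simulated data, where it missed most of the smaller and some of the larger changes put in. A gene that it did not call may thus still differ.

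The genes and the 27 lists (781 entries, 759 distinct genes, 694 measured) were chosen with earlier results of these data known. Named were the 20 widest margins in each direction, selected list genes, CDH1, EPCAM, VIM, ZEB1, CDH2, KRT8, KRT18, KRT19, F3, MTAP and SMAD4, the 2 genes on either side of the threshold, the 8 widest margins on the arrays without a media label and up to 4 called genes a list, largest differences first. Other selected genes were grouped by role, and marker, neighbour and partner genes were added, after values were seen. Alternatives were another centring, quantile normalization, the most variable feature, an SD filter, other margins, other sets of lines or arrays, a replicate block, and each array left out in turn.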

Additional observations from a re-analysis of the deposited data

Results flagged for a closer look

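Features without a single gene symbol were left out of the comparison, and some showed the same separation. Of 13888 such features, 5 lay at least 2 above all 7 other line means on every MiaPaca2 array, with a highest margin of 3.49, and 8 lay at least 2 below, with a highest margin of 3.76. They are unnamed here, were not described further, and appear because they lie outside the named genes.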

How the results depend on the processing

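Among recomputed counts of calls or selected genes, 95 stayed within 1.5 times the reported value and 35 did not. The 19 higher and 53 lower genes became 60 and 100 with the MiaPaca2 array without a media label alone, 55 and 107 with a margin of 1, 10 and 17 with a margin of 3, and 37 and 105 against the 4 other pancreatic lines. With a margin of 1.5 there were 31 higher. Leaving out each array gave 18 to 27 higher and 51 to 74 lower, and quantile normalization kept all 19 and 52 of the 53. The 13 higher and 15 lower calls on line means became 23 and 25 with quantile normalization, 4 and 8 with a filter on SD, 25 and 23 with the array without a media label alone, 2245 and 2439 over arrays, and 0 and 0 against the pancreatic lines, where limma gave 321 and 456 at an unadjusted p under 0.05. Leaving out each array gave 0 to 16 and 1 to 19. The cause was not tested. Of the genes chosen without the DMSO arrays, 79 and 165 were called with them, 218 and 354 with a margin of 1, 40 and 77 with a margin of 3, 66 to 119 and 161 to 266 as each array was left out. The high ends were without HCT-116 and without SW620. CDH2 turned to 0.26 within the arrays without a media label. Same-numbered DMSO arrays deviated from their line means at correlations of -0.134, -0.01 and 0.144. These show no clear pairing by number, and with 2 arrays a line they cannot exclude one. With the replicate block, 76 and 163 of the chosen genes were called, and over arrays 1915 and 2379. Leaving out MiaPaca2 arrays could not give a count from the array without a media label, since the choice needs it. Without intensities, no limit from signal over background can be given.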
